A study of Homo sapiens with 8 samples.

Results

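The comparison described here sets 2 arrays of HepG2 cells treated with JQ1 at 500 nM against 3 arrays of cells that received the solvent DMSO alone, each for 4 h and each at a final DMSO concentration of 0.1%. These are 5 of the 8 arrays of the series. The other 3, of cells treated with RVX-208 at 5000 nM, entered the model to estimate the spread and give context for single genes. The third JQ1 sample that the study design counts is not analysed here. HepG2 is an established human liver tumour line that keeps many hepatocyte traits, and every array comes from this 1 line. Affymetrix Human Gene 1.0 ST arrays measured the RNA, and each value is a log2 signal per probe set as normalised by the authors. A gene was named only where its probe set is paired with 1 symbol, which gave 17845 genes.

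JQ1 is a small molecule that occupies the acetyl-lysine pocket of the BET family of proteins. These proteins bind acetylated histones through paired bromodomains. The kinase P-TEFb releases paused RNA polymerase II into elongation. Part of P-TEFb is held inactive by the 7SK RNA together with HEXIM1 or HEXIM2, and HEXIM1 is widely used as a transcript that rises when BET proteins are inhibited. In liver cells BET proteins sit at enhancers together with hepatocyte transcription factors. The question put to these arrays is which transcripts differ after a short exposure to JQ1.

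The median log2 signal was between 7.26 and 7.31 in all 8 arrays, and the arrays carry no counts, so that their number sets the precision. Of 13 tested hepatocyte markers, ALB stood at 13.42 and AFP at 12.93 in DMSO, the median was 12.93 and APOA1 was the lowest at 4.80, and 0 were called in limma (1 at an unadjusted p under 0.05). The blood markers ranged from PTPRC at 3.50 to LYZ at 13.19, with a median of 5.58. The fibroblast markers ranged from LUM at 3.32 to COL1A1 at 7.51 and the endothelial ones, with a median of 5.08, reached 8.17 in PECAM1. Of these lists, PDGFRB among 9 fibroblast markers and TEK among 7 endothelial markers were called lower, and 0 of 7 blood markers were called (0 at an unadjusted p under 0.05). Summed over its list, the fibroblast signal was 49.3 to 49.6 in DMSO and 47.8 to 48.2 in JQ1 and the endothelial signal 37.9 to 38.2 and 36.9 to 37.3. The hepatocyte sum was 154.3 to 154.9 in DMSO and 155.2 to 156.7 in JQ1, and the blood sum 45.6 to 46.7 and 45.4 to 46.8, which overlap. Their part in the results was not tested. The arrays read a whole culture, so fewer cells of a state and less RNA per cell cannot be told apart. The labels do not say that samples were separate cultures, and p-values therefore measure the spread between these samples.

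JQ1 changed 4066 genes at an adjusted p under 0.05 (limma, Benjamini-Hochberg over 17845 genes), which is 22.8% of those tested. Of these, 1916 rose (10.7%) and 2150 fell (12.0%). Leaving out JQ1 replicate 1 gave 2572 calls and leaving out JQ1 replicate 2 gave 2565, in fits where the lone JQ1 array is taken to vary like the other groups. Most changes were small (differences are JQ1 minus DMSO in log2 units, ± SE of the fit, over 2 JQ1 and 3 DMSO arrays). The 25th and 75th percentiles over all genes were −0.16 and 0.09 log2 units, and the 1st and 99th were −0.73 and 0.73. Among called genes, the median rise was 0.38 and the median fall −0.35, against a median SE of 0.08 over all genes, and 58 genes rose and 51 fell by at least 1 log2 unit. All 4066 called genes had JQ1 arrays that lay wholly on one side of the DMSO arrays, as did 9002 of all genes tested (50.4%).

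**Figure D1:**
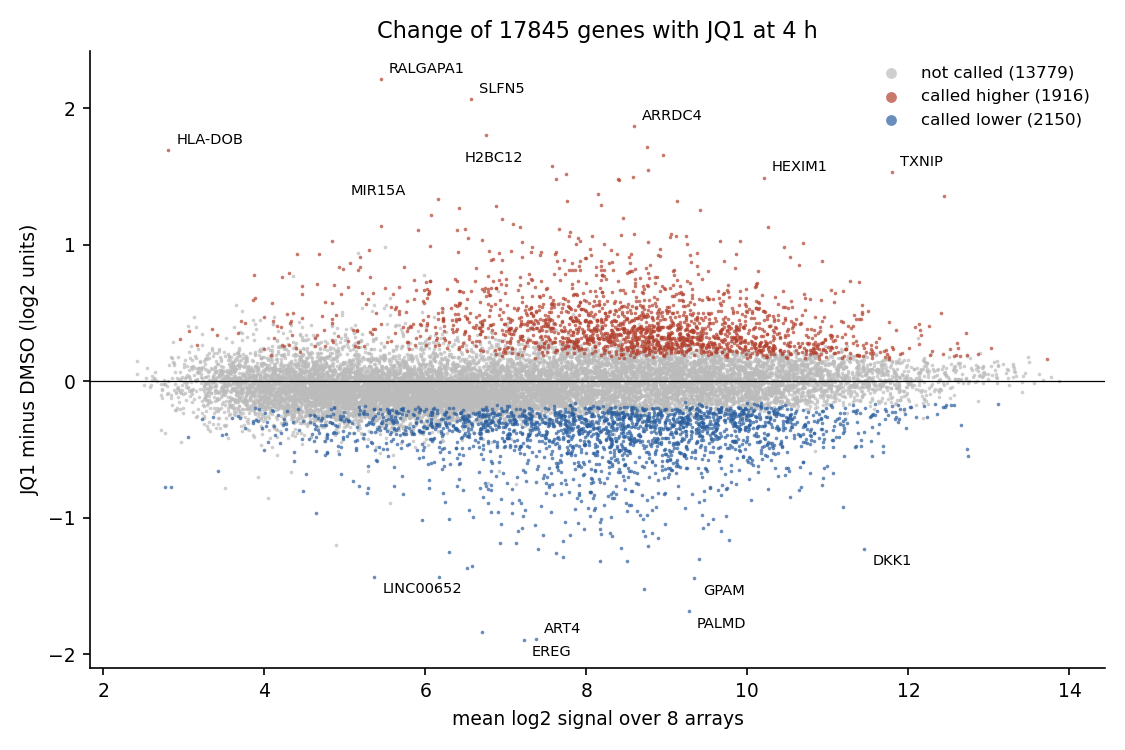
Difference between JQ1 and DMSO in log2 units (vertical axis) against the mean log2 signal over 8 arrays (horizontal axis), 1 point per gene. The 1916 genes called higher and 2150 called lower lie mostly between 6 and 11 on the signal axis, and RALGAPA1, SLFN5 and ARRDC4 stand at the top, EREG and ART4 at the bottom.

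Calls depended on signal, as 10 equal bins of genes by mean log2 signal showed. In the dimmest bin, at 2.41 to 4.49, 4.54% of genes were called, and in bin 8, at 8.71 to 9.42, 39.4% were called. In the brightest bin the share was 26.7%. Dim genes had a larger median SE (0.11 in the dimmest bin and 0.06 in the brightest), and falls outnumbered rises in bins 1 to 7 and 9, by 123 to 47 in bin 3 and by 349 to 340 in bin 7. In bins 8 and 10 the rises led, with 379 against 324 and 248 against 229. Lists of dim genes therefore offer fewer calls than lists of bright ones, and the shares below are to be set against that range as well as against 22.8%.

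Gene span, the distance from the first to the last base of the gene in RefSeq, went with calls to a lesser degree. In 10 equal bins of protein-coding genes by span, 14.8% were called in the shortest (0.2 to 3.9 kb) and 28.6% in bin 8 (57.3 to 90.6 kb). The shortest genes were also dimmer, with a median signal of 6.57 against 7.97 in bin 8. In bin 3, rises made up 7.25% of genes and falls 11.8%. The median span was 35.0 kb for genes called higher, 30.6 kb for those called lower and 25.6 kb for those not called. Whether signal accounts for the differences by span was not tested.

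**Figure D2:**
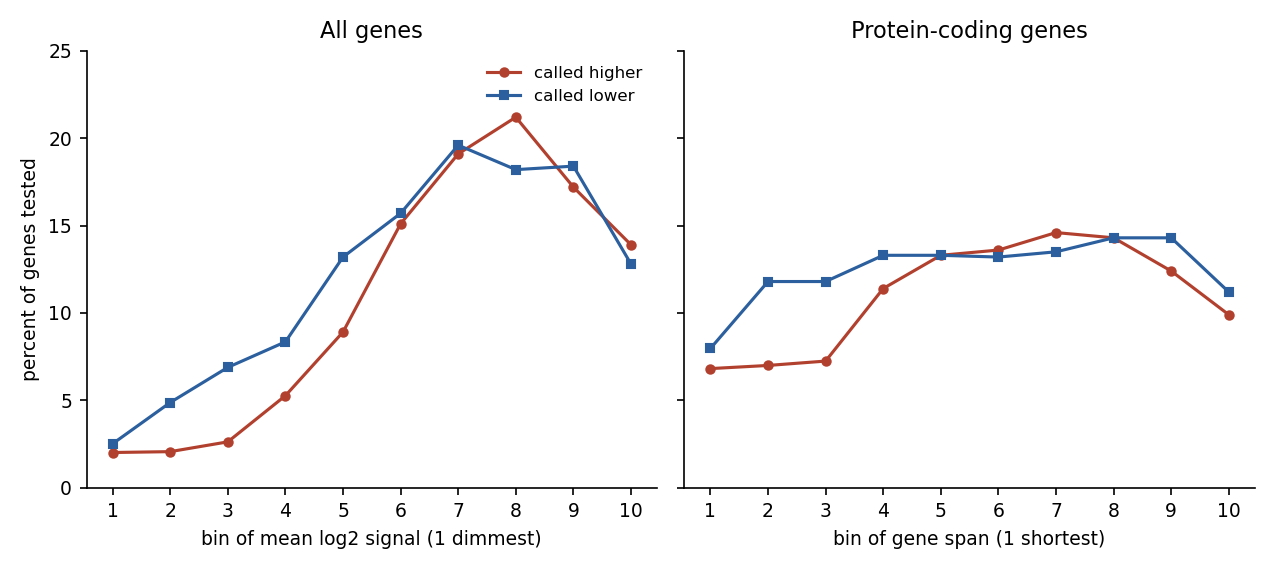
Percent of genes called higher (circles) and lower (squares), vertical axis, in 10 equal bins of all genes by mean log2 signal (left) and of protein-coding genes by span (right). The share called higher goes from 2.02% in the dimmest bin to 21.2% in bin 8. By span, falls lead rises in bins 1 to 4 and also in bins 9 and 10, with 14.3% each in bin 8.

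RNA classes differed in the direction of their calls. Of 16560 protein-coding genes, 1832 rose and 2065 fell. Of 488 long noncoding RNA genes 16 rose (3.28%) and 43 fell (8.81%). Of 171 small nucleolar RNA genes 29 rose (17.0%) and 3 fell (1.75%), and of 168 microRNA genes 3 rose (1.79%) and 10 fell (5.95%). Over all genes the shares were 10.7% and 12.0%. Both shares of the long noncoding and microRNA genes lay below these, as did those of dim genes, with 2.63% and 6.89% in signal bin 3. By chromosome, the share called higher ranged from 6.09% on X and 6.41% on 20 to 15.3% on 15, and the share called lower from 8.77% on X to 14.8% on 20. X and 21 had the lowest shares of calls, 14.9% and 16.2%.

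The strongest rise was that of RALGAPA1, which encodes the catalytic subunit of a GTPase-activating complex for Ral proteins, and its arrays varied widely. Its signal was 4.42, 3.61 and 5.94 in the DMSO arrays and 6.65 and 7.09 in the JQ1 arrays. The DMSO arrays spread widely, and both JQ1 arrays lay above all of them. The difference of 2.21 ± 0.59 (adjusted p = 0.028) lost its call without DMSO replicate 1 (adjusted p = 0.0716), DMSO replicate 2 (0.0562), JQ1 replicate 1 (0.0859) or JQ1 replicate 2 (0.149). HLA-DOB, a chain of the peptide-loading regulator of MHC class II, was similar, with 1.96, 2.26 and 2.51 in the DMSO arrays and 4.94 and 2.94 in the JQ1 arrays. Its 2 JQ1 arrays lay far apart, JQ1 replicate 2 being close to DMSO, and its difference of 1.69 ± 0.48 went to 0.69 without JQ1 replicate 1 (adjusted p = 0.12). Leaving out DMSO replicate 1 (0.0895), 2 (0.0739) or 3 (0.0581) or RVX-208 replicate 1 (0.0515) also took its adjusted p past the threshold.

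The next rises were tighter. SLFN5, a member of the Schlafen family induced by interferons, stood at 5.65, 5.85 and 5.87 in the DMSO arrays and 7.71 and 7.99 in the JQ1 arrays. The groups were far apart, a 4.18-fold rise (2.06 ± 0.11, adjusted p = 2.073e-05). ARRDC4, an alpha-arrestin, stood at 7.95, 8.04 and 7.87 in the DMSO arrays and 9.70 and 9.94 in the JQ1 arrays. The alpha-arrestin TXNIP, which restrains glucose uptake and binds thioredoxin, stood at 11.25, 11.20 and 11.17 in the DMSO arrays and 12.71 and 12.76 in the JQ1 arrays. Both sets of JQ1 arrays lay above all DMSO arrays, and the rises were 3.65-fold (1.87 ± 0.08) and 2.88-fold (1.53 ± 0.06, adjusted p = 1.120e-05). TXNIP was already among the brightest genes in DMSO. In the alpha-arrestin list 4 of 5 tested members rose, among them ARRDC3 by 0.31 ± 0.07, and ARRDC2 differed by −0.25 ± 0.06. ARRDC3 lost its call in 1 of 8 fits without 1 array and ARRDC2 in 2.

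TXNIP and ARRDC4 are known as joint targets of the carbohydrate response factor ChREBP, which binds E-boxes, so their promoter windows (250 bases before to 50 after the RefSeq start, GRCh38.p14) are shown with CACGTG and CCAAT on either strand in capitals. They lie at chr1:145996530-145996829 (minus strand) and chr15:97960453-97960752 (plus strand).
TXNIP: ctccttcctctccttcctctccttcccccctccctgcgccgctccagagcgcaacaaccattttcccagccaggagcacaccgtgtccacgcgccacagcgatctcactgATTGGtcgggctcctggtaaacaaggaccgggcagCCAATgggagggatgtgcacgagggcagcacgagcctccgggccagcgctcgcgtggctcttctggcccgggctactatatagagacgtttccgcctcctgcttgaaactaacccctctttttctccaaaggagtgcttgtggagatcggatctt
ARRDC4: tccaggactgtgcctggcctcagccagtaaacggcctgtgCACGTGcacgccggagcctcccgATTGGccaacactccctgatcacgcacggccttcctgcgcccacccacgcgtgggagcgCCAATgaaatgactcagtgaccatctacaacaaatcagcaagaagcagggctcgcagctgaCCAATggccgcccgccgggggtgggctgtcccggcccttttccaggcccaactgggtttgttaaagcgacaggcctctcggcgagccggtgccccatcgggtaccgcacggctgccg
ARRDC4 holds CACGTG and TXNIP does not hold these exact letters in this window, and both hold CCAAT. Variants of the E-box letters were not searched, so the lack of CACGTG does not show that TXNIP lacks a site for ChREBP.

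**Figure D3:**
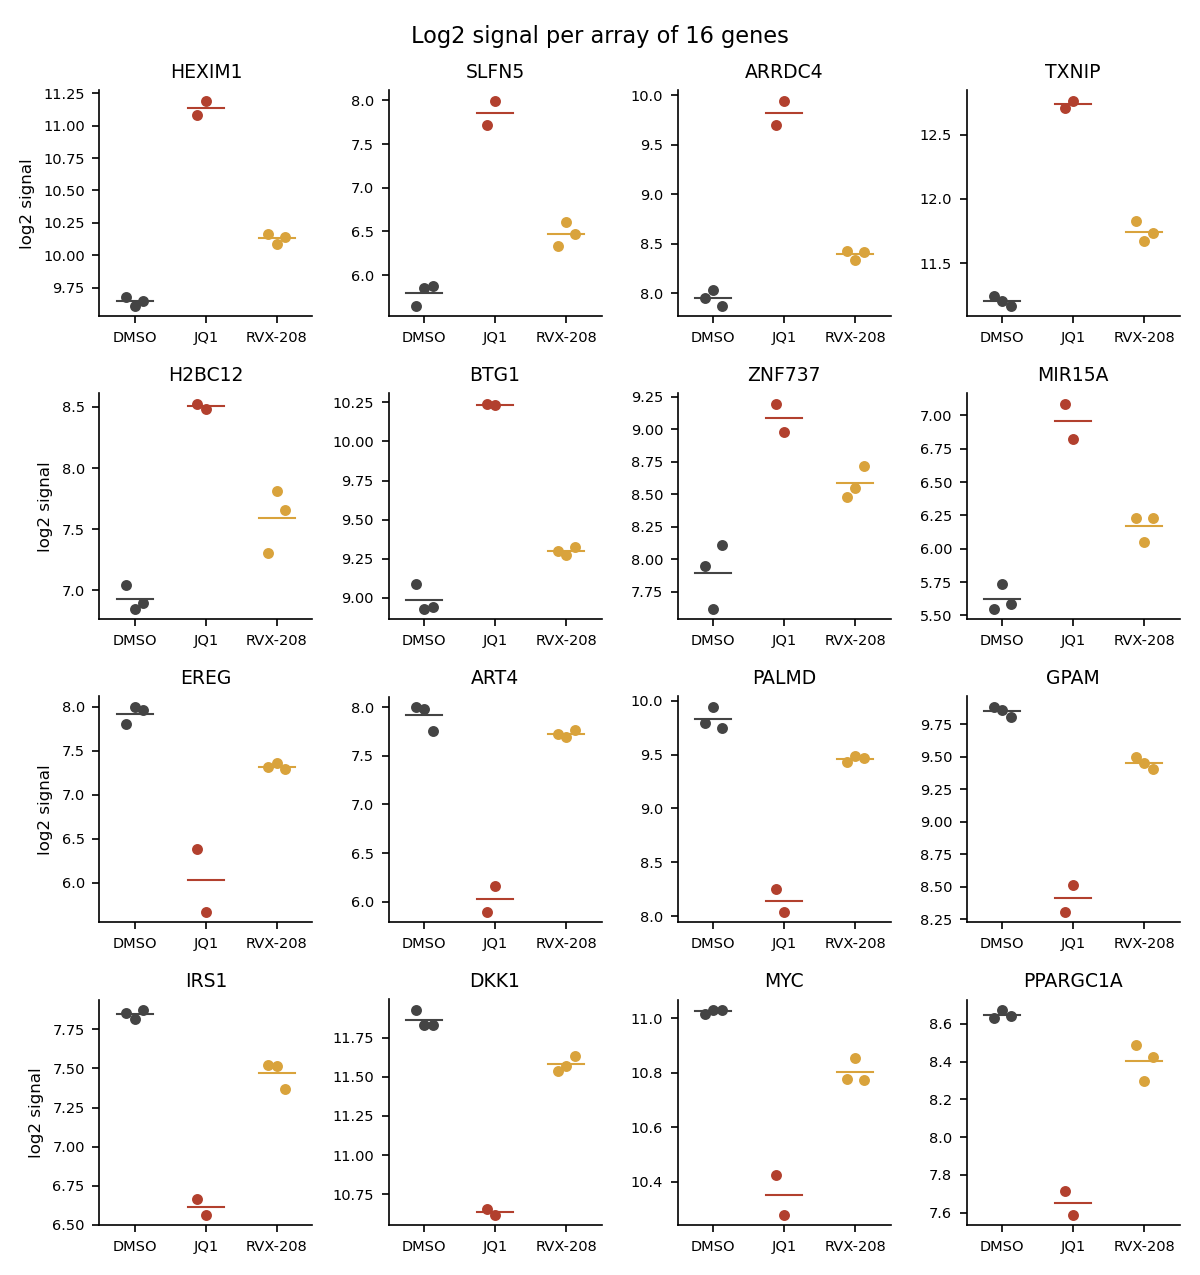
Log2 signal (vertical axes) of 16 genes in each of the 3 DMSO, 2 JQ1 and 3 RVX-208 arrays. Points are arrays and lines group means. In all 16 genes the JQ1 arrays lie outside the range of the DMSO arrays.

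Further genes with large, stable rises had varied roles. CNNM4, a magnesium transporter, rose by 1.66 ± 0.05, and ZSWIM6, a zinc finger protein, by 1.71 ± 0.05. ADARB1, which edits adenosine to inosine in RNA, rose by 1.55 ± 0.07. MYBL1, a MYB-family transcription factor, rose by 1.48 ± 0.07, and CSRNP2, a nuclear factor, by 1.47 ± 0.09. BTG1, an antiproliferative partner of the CCR4-NOT deadenylase, stood at 9.09, 8.93 and 8.94 in the DMSO arrays and 10.24 and 10.23 in the JQ1 arrays, a difference of 1.25 ± 0.06. These genes were called in all 8 fits without 1 array, as were 28 of the 30 largest rises. SERPINB9, the inhibitor of granzyme B, rose by 1.32 ± 0.07, and SERPINI1, the neuron-type serpin neuroserpin, by 0.93 ± 0.16. DHRS2, a dehydrogenase gene, rose by 1.35 ± 0.05 from an already bright 11.77.

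The largest falls included a ligand, a blood group enzyme and a lipid enzyme. EREG, the EGF-family ligand epiregulin, stood at 7.80, 8.0 and 7.96 in the DMSO arrays and 6.39 and 5.67 in the JQ1 arrays. The JQ1 arrays differed from each other, and both lay far below DMSO, a 3.72-fold fall (−1.90 ± 0.17, adjusted p = 1.765e-04). ART4, which carries the Dombrock blood group, stood at 8.01, 7.98 and 7.76 in the DMSO arrays and 5.89 and 6.16 in the JQ1 arrays (−1.89 ± 0.10). PALMD, a paralemmin-family protein, stood at 9.79, 9.94 and 9.75 in the DMSO arrays and 8.25 and 8.04 in the JQ1 arrays (−1.69 ± 0.08). In neither gene did the groups come near each other. MAB21L3 fell by 1.84 ± 0.09, and TNS4, a focal adhesion protein downstream of EGF receptor signalling, fell by 1.52 ± 0.07. KANK1, which links focal adhesions to cortical microtubules, fell by 1.32 ± 0.07, and the unconventional myosin gene MYO10 fell by 1.13 ± 0.07. EPO, the red-cell hormone that HepG2 cells are known to make, fell by 1.14 ± 0.08. DHRS3, a retinaldehyde reductase, fell by 1.15 ± 0.06 and DCLRE1A, a nuclease of crosslink repair, fell by 1.12 ± 0.09. Of the 30 largest falls 29 were called in all 8 fits without 1 array. The exception was LINC00652, whose adjusted p was 0.0705 in the fit that left out JQ1 replicate 2.

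The P-TEFb and elongation list moved unevenly. Of 34 tested members 9 rose (5 with JQ1 replicate 1 left out) and 3 fell, against 10.7% and 12.0% over all genes. The median difference was 0.06 (−0.10 after housekeeping centring) log2 units. HEXIM1 stood at 9.68, 9.61 and 9.65 in the DMSO arrays and 11.08 and 11.19 in the JQ1 arrays, and HEXIM2, its paralog and immediate neighbour among the genes tested on chromosome 17, at 9.94, 9.97 and 9.89 in the DMSO arrays and 9.04 and 9.16 in the JQ1 arrays. The groups did not overlap in either gene, and the pair moved in opposite directions, by 1.49 ± 0.06 (adjusted p = 9.942e-06) and −0.83 ± 0.07 (adjusted p = 1.420e-04). CTR9, a subunit of the PAF1 complex that travels with polymerase, rose by 0.83 ± 0.07. The P-TEFb cyclin CCNT1 rose by 0.72 ± 0.07 and AFF4, the scaffold of the super elongation complex, by 0.48 ± 0.07. NELFA, of the pausing factor NELF, fell by 0.62 ± 0.05. Of the 13 tested subunits of RNA polymerase II, POLR2A, the catalytic subunit, rose (0.85 ± 0.07), and POLR2M fell by 0.24 ± 0.07 and lost its call in 7 of 8 fits without 1 array.

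The promoter of HEXIM1, which carries the largest change of this list, is shown for the letters it holds, 250 bases before to 50 bases after the RefSeq start, at chr17:45148225-45148524 (plus strand) of GRCh38.p14, with CCAAT on either strand and TATAAA in capitals.
HEXIM1: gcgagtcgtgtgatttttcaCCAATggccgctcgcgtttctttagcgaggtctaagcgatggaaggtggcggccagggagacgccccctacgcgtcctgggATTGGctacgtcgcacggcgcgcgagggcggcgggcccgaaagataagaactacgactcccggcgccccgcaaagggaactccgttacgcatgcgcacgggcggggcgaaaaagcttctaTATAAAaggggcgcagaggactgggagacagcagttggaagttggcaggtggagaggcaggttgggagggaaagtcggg
It holds CCAAT on both strands and 1 TATAAA. Of the 16560 protein-coding genes tested, 13499 (81.5%) have such a promoter window, as do 84.8% of those called higher and 81.3% of those called lower. TATAAA on either strand was present in 9.01% of all these windows and CCAAT in 36.5%. CCAAT was present in 46.2% of promoters of genes called higher and in 30.7% of those called lower. For the E-box letters CACGTG, the order was the other way, with 9.01% and 13.0% against 8.93% over all. Of 10 sets of letters searched, others differed by call too. GGGCGG was present in 76.2% and 62.9% against 60.6% over all, and TGACTCA in 2.19% and 4.41% against 3.56%. These shares describe letters, not bound sites, and called genes were also brighter than the rest.

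BRD2, a BET gene, rose (1.01 ± 0.07), with 10.20, 10.37 and 10.38 in the DMSO arrays and 11.37 and 11.29 in the JQ1 arrays. BRD3 differed by 0.02 ± 0.05 (95% interval −0.10 to 0.14, adjusted p = 0.841). In the wider bromodomain list, of 38 tested members 5 rose (between 1 and 3 without DMSO replicate 1, DMSO replicate 2, JQ1 replicate 1 and JQ1 replicate 2) and 5 fell (3 with JQ1 replicate 2 left out), shares close to the background, with a median of −0.09. ZMYND8, a reader of acetylated histones, fell most (−0.87 ± 0.05), and CREBBP, the acetyltransferase CBP, fell by 0.41 ± 0.07. SP110, a nuclear body protein, fell by 0.43 ± 0.08.

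Among lists with 20 or more tested members, histone genes had the largest share of rises. Of 69 tested members 35 rose and 3 fell. The share higher was 50.7%, against 10.7% over all genes, with a median of 0.26 log2 units, which was 0.28 after cyclic loess and 0.10 after housekeeping centring. The clustered H2B genes had 10 of 16 higher and a median of 0.44, H2A genes 7 of 14 and 0.28, H3 genes 6 of 8 and 0.30 and H4 genes 5 of 11 and 0.25. The clustered linker histone H1 genes had 1 of 6 higher. H2BC21, which lies on chromosome 1 away from the large cluster on chromosome 6, stood at 8.21, 7.88 and 7.94 in the DMSO arrays and 9.50 and 9.51 in the JQ1 arrays. H2BC12 stood at 7.04, 6.85 and 6.89 in the DMSO arrays and 8.53 and 8.48 in the JQ1 arrays and H2BC5 at 7.39, 7.28 and 6.92 in the DMSO arrays and 8.47 and 8.55 in the JQ1 arrays. In all 3 the groups were apart by more than 1 log2 unit, with differences of 1.496 ± 0.09, 1.58 ± 0.13 and 1.32 ± 0.12. H2AC17 rose by 1.13 ± 0.13. H2BC14 went the other way, with 13.01, 12.92 and 12.90 in the DMSO arrays and 12.44 and 12.36 in the JQ1 arrays (−0.55 ± 0.06), and was far brighter than the H2B genes that rose most. Clustered histone genes have nearly identical coding sequences, so probes may read more than 1 copy and single values are uncertain.

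The promoter windows of these H2B genes show what the family shares, with the octamer ATTTGCAT, CCAAT and TATAAA on either strand in capitals, all from GRCh38.p14. They lie at chr6:27146809-27147108 (minus strand) for H2BC12, chr1:149886633-149886932 (minus strand) for H2BC21, chr6:26157871-26158170 (plus strand) for H2BC5 and chr6:27814772-27815071 (plus strand) for H2BC14.
H2BC12: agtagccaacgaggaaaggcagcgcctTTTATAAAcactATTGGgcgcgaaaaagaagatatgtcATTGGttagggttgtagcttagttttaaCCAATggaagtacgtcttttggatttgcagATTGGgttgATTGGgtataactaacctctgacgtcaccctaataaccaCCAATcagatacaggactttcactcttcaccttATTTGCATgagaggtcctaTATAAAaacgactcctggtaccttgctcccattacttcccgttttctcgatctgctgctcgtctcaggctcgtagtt
H2BC21: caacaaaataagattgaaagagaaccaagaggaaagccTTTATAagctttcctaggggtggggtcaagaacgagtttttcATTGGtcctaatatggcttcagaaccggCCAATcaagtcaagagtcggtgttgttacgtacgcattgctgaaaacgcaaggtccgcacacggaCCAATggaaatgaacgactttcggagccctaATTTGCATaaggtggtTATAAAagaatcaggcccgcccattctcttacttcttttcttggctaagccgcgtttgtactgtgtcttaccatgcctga
H2BC5: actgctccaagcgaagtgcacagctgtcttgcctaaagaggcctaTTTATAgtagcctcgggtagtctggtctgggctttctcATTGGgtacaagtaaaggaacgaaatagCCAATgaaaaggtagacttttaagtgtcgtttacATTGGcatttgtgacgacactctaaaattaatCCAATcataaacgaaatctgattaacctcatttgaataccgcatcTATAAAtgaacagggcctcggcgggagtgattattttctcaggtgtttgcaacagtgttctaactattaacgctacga
H2BC14: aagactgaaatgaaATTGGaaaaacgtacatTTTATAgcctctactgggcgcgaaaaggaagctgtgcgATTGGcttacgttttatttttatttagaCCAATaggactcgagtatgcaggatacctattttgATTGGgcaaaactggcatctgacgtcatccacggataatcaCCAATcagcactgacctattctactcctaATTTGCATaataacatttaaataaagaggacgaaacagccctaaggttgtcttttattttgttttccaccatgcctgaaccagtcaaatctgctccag
The octamer, known as a signature of H2B promoters, stands in H2BC12, H2BC21 and also in H2BC14, which fell, while the window of H2BC5 lacks these exact letters. Among 30 promoters of histone genes called higher, 53.3% held the octamer and 80.0% TATAAA. Among the other 33 histone promoters the shares were 24.2% and 45.5%, and over all protein-coding promoters 1.64% and 9.01%. CCAAT stood in 86.7% and 84.8% of the histone sets. H2B genes hold the octamer more often than other histone genes, though many H2A windows hold it too. By count H2B genes had the most rises (10 of 16), while the share was larger among H3 genes (6 of 8). The split by call and the split by family were not separated here.

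Zinc finger genes named ZNF formed the largest list. Of 464 tested members 117 rose and 64 fell (33 with JQ1 replicate 1 left out and 38 with JQ1 replicate 2 left out), with a median of 0.07 (−0.09 after housekeeping centring). Most of these genes encode DNA-binding repressors, many with a KRAB domain, and many lie in arrays of duplicates on chromosome 19. Of 223 on chromosome 19, 74 rose (33.2%) and 22 fell (9.87%), and of 241 on other chromosomes 43 rose (17.8%) and 42 fell (17.4%). Other genes of chromosome 19 numbered 1052, of which 54 rose (5.13%) and 123 fell (11.7%). ZNF701 rose by 1.21 ± 0.13, ZNF737 by 1.19 ± 0.14, ZNF654 by 1.11 ± 0.09 and ZNF441 by 1.11 ± 0.18. ZNF114 fell by 1.26 ± 0.07 and ZNF385B fell by 1.19 ± 0.07.

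A stretch of 10 adjacent tested genes on chromosome 19, from ZNF682 to ZNF708, was called higher throughout. It was picked as a run of calls in 1 direction, so the calls set its ends. The members differed by between 0.36 ± 0.06 for ZNF714 and 1.19 ± 0.14 for ZNF737. Just before ZNF682, ZNF93 differed by 0.30 ± 0.14 and was not called. Beyond ZNF708, ZNF738 fell by 0.37 ± 0.07 (adjusted p = 0.0589 without JQ1 replicate 1), and then ZNF493, ZNF429 and ZNF100 rose. ZNF737 stood at 7.95, 7.62 and 8.11 in the DMSO arrays and 9.19 and 8.97 in the JQ1 arrays, and ZNF430 at 7.22, 7.31 and 7.03 in the DMSO arrays and 7.82 and 7.92 in the JQ1 arrays. The groups did not overlap in either gene. Duplicated zinc finger genes share sequence, so the values of single members are uncertain. Over the whole genome 17798 pairs of neighbouring tested genes held 1048 with both members called, 295 with both higher, 276 with both lower and 477 with opposite directions.

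**Figure D4:**
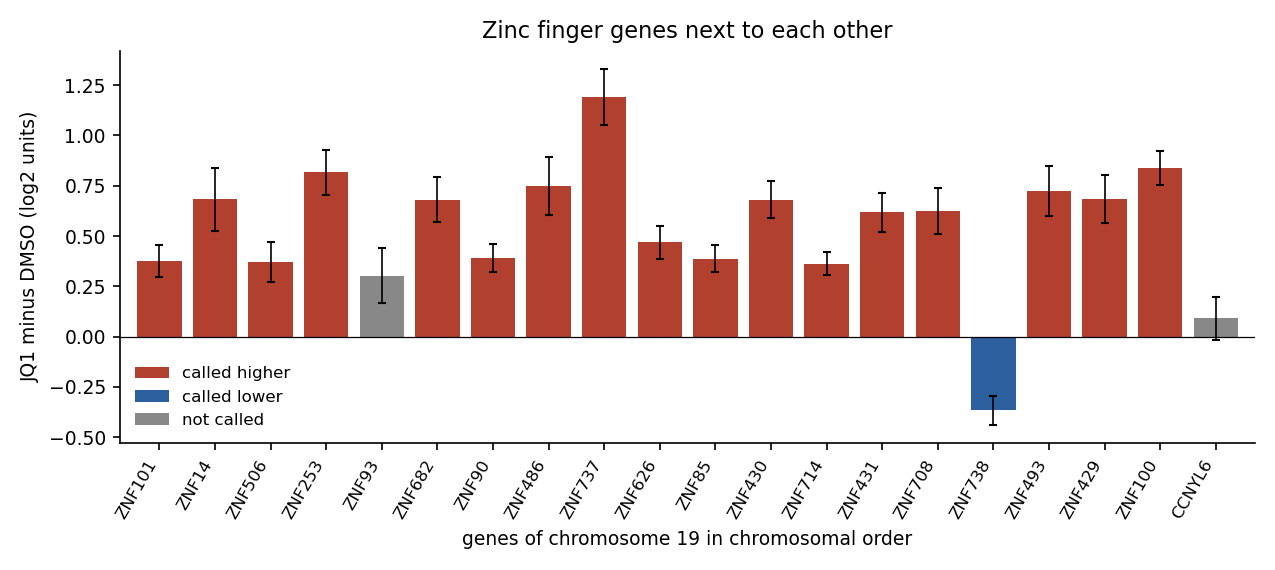
Difference between JQ1 and DMSO in log2 units (vertical axis, bars, with SE) for neighbouring genes of chromosome 19 in chromosomal order. The 10 genes from ZNF682 to ZNF708 are all called higher, with ZNF737 the tallest at 1.19, and ZNF738 falls by 0.37.

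The promoters of 2 genes of this stretch are printed as examples of the windows counted below, with CCAAT and the ETS-type letters CCGGAAG on either strand in capitals. They lie at chr19:20565732-20566031 (minus strand) for ZNF737 and chr19:21329361-21329660 (minus strand) for ZNF708 of GRCh38.p14.
ZNF737: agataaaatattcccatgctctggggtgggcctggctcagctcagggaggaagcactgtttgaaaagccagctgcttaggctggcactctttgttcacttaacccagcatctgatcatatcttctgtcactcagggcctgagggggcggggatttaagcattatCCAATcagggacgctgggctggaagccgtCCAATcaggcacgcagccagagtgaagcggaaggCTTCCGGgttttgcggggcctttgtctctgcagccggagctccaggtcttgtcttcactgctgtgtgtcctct
ZNF708: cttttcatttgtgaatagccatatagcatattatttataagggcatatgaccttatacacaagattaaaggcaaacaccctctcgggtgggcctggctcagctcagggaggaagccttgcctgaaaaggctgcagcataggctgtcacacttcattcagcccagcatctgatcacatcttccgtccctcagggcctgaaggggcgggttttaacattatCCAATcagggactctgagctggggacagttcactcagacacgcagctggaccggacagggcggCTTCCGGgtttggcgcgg
Both hold CCAAT and CCGGAAG read on the opposite strand. Among 103 promoters of ZNF genes called higher, 65.0% held CCAAT and 47.6% CCGGAAG. Among 52 of ZNF genes called lower the shares were 38.5% and 28.8%, and over all protein-coding promoters 36.5% and 14.8%. ZNF genes that were not called were not counted apart, and these shares were not split by chromosome. Promoters of duplicated genes share ancestry and are not independent.

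Small nucleolar and Cajal body RNA genes, which guide chemical marks on ribosomal and spliceosomal RNA and mostly lie in introns, held more rises than falls. Of 188 tested members 32 rose (17 with JQ1 replicate 1 left out) and 4 fell, with a median of 0.10 (−0.06 after housekeeping centring). The C/D box class made up most of it. Of 113 SNORD genes 25 rose (22.1%) and 0 fell, while of 59 SNORA genes 5 rose and 3 fell. Among the 93 SNORD genes other than SNORD116, 14 rose (15.1%), against 10.7% over all genes. At an unadjusted p under 0.05 in limma, 2 SNORD genes were lower. SNORD14E rose by 0.87 ± 0.12, SNORD59A by 0.78 ± 0.12 and the Cajal body RNA SCARNA9 by 0.73 ± 0.13. Of the 20 tested copies of SNORD116, the imprinted cluster on chromosome 15 linked to Prader-Willi syndrome, 11 rose and 0 fell, with none lower at an unadjusted p under 0.05 either, and 7 neighbouring copies were all higher, from 0.20 ± 0.06 for SNORD116-14 to 0.66 ± 0.11 for SNORD116-13. This run was also picked from the calls, and the next tested copies, SNORD116-15, SNORD116-16 and SNORD116-18, were not called. SNORD116-14 lost its call in 5 of 8 fits without 1 array and SNORD116-13 in none. These copies are near identical in sequence, and the values of single copies are uncertain.

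Long noncoding RNAs named as such, a dim list with a median log2 signal of 5.66, held more falls than rises, as of 340 tested members 8 rose and 34 fell (19 with DMSO replicate 3 left out and 18 with JQ1 replicate 2 left out). Both shares, 2.35% and 10.0%, are below those over all genes, while in the bin of genes at 5.29 to 5.99 the shares were 2.63% and 6.89%. MALAT1, an abundant nuclear RNA of speckles, rose by 0.73 ± 0.08 and ASB16-AS1 by 1.07 ± 0.08. LINC00467 rose by 0.74 ± 0.06. DLGAP1-AS1 fell by 0.96 ± 0.07 and CTBP1-DT fell by 0.64 ± 0.07.

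Among microRNA genes, MIR15A showed the clearest change. It stood at 5.55, 5.74 and 5.58 in the DMSO arrays and 7.09 and 6.83 in the JQ1 arrays, a rise of 1.33 ± 0.10 (adjusted p = 6.931e-05), and was called in all 8 fits without 1 array. MIR16-1, which lies beside it in the same intron of the noncoding gene DLEU2, differed by 0.05 ± 0.08 and was dim at 3.39, and DLEU2 itself differed by 0.04 ± 0.11 (adjusted p = 0.81). MIR15B rose by 0.34 ± 0.10, a call lost without DMSO replicate 1, 2 or 3, JQ1 replicate 1 or 2 or RVX-208 replicate 2, with adjusted p-values from 0.0513 to 0.203. MIR15B was dim too, at 3.24 in DMSO. SMC4, the condensin gene that hosts MIR15B, rose by 0.41 ± 0.06, while MIR16-2, also on chromosome 3, differed by 0.03 ± 0.09 and was not called. MIR221 fell by 0.58 ± 0.14, with adjusted p = 0.127 without JQ1 replicate 2. The mature RNAs made from 4 of these loci are shown with the seed, bases 2 to 8, in capitals, from RefSeq (GRCh38.p14), at chr13:50049167-50049188 (minus strand), chr3:160404607-160404628 (plus strand), chr5:168560904-168560926 (minus strand) and chrX:45746180-45746202 (minus strand).
hsa-miR-15a-5p: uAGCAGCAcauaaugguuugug
hsa-miR-15b-5p: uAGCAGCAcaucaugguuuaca
hsa-miR-103a-3p: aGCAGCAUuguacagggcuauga
hsa-miR-221-3p: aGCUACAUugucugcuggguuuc
The miR-15a-5p and miR-15b-5p seeds are the same, and they were the only pair sharing a seed among 24 mature sequences of called genes. The same letters are bases 1 to 7 of miR-103a-3p. Its locus MIR103A1 fell by 0.42 ± 0.10, a call lost in 2 of 8 fits without 1 array. Its other locus, MIR103A2, differed by 0.28 ± 0.17 and was not called. These probe sets read the transcribed locus, so mature microRNA levels were not measured.

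The lists that follow describe groups of genes by their function. Each is to be set against 10.7% higher and 12.0% lower over all genes, and against the shares by signal given above.

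**Figure D5:**
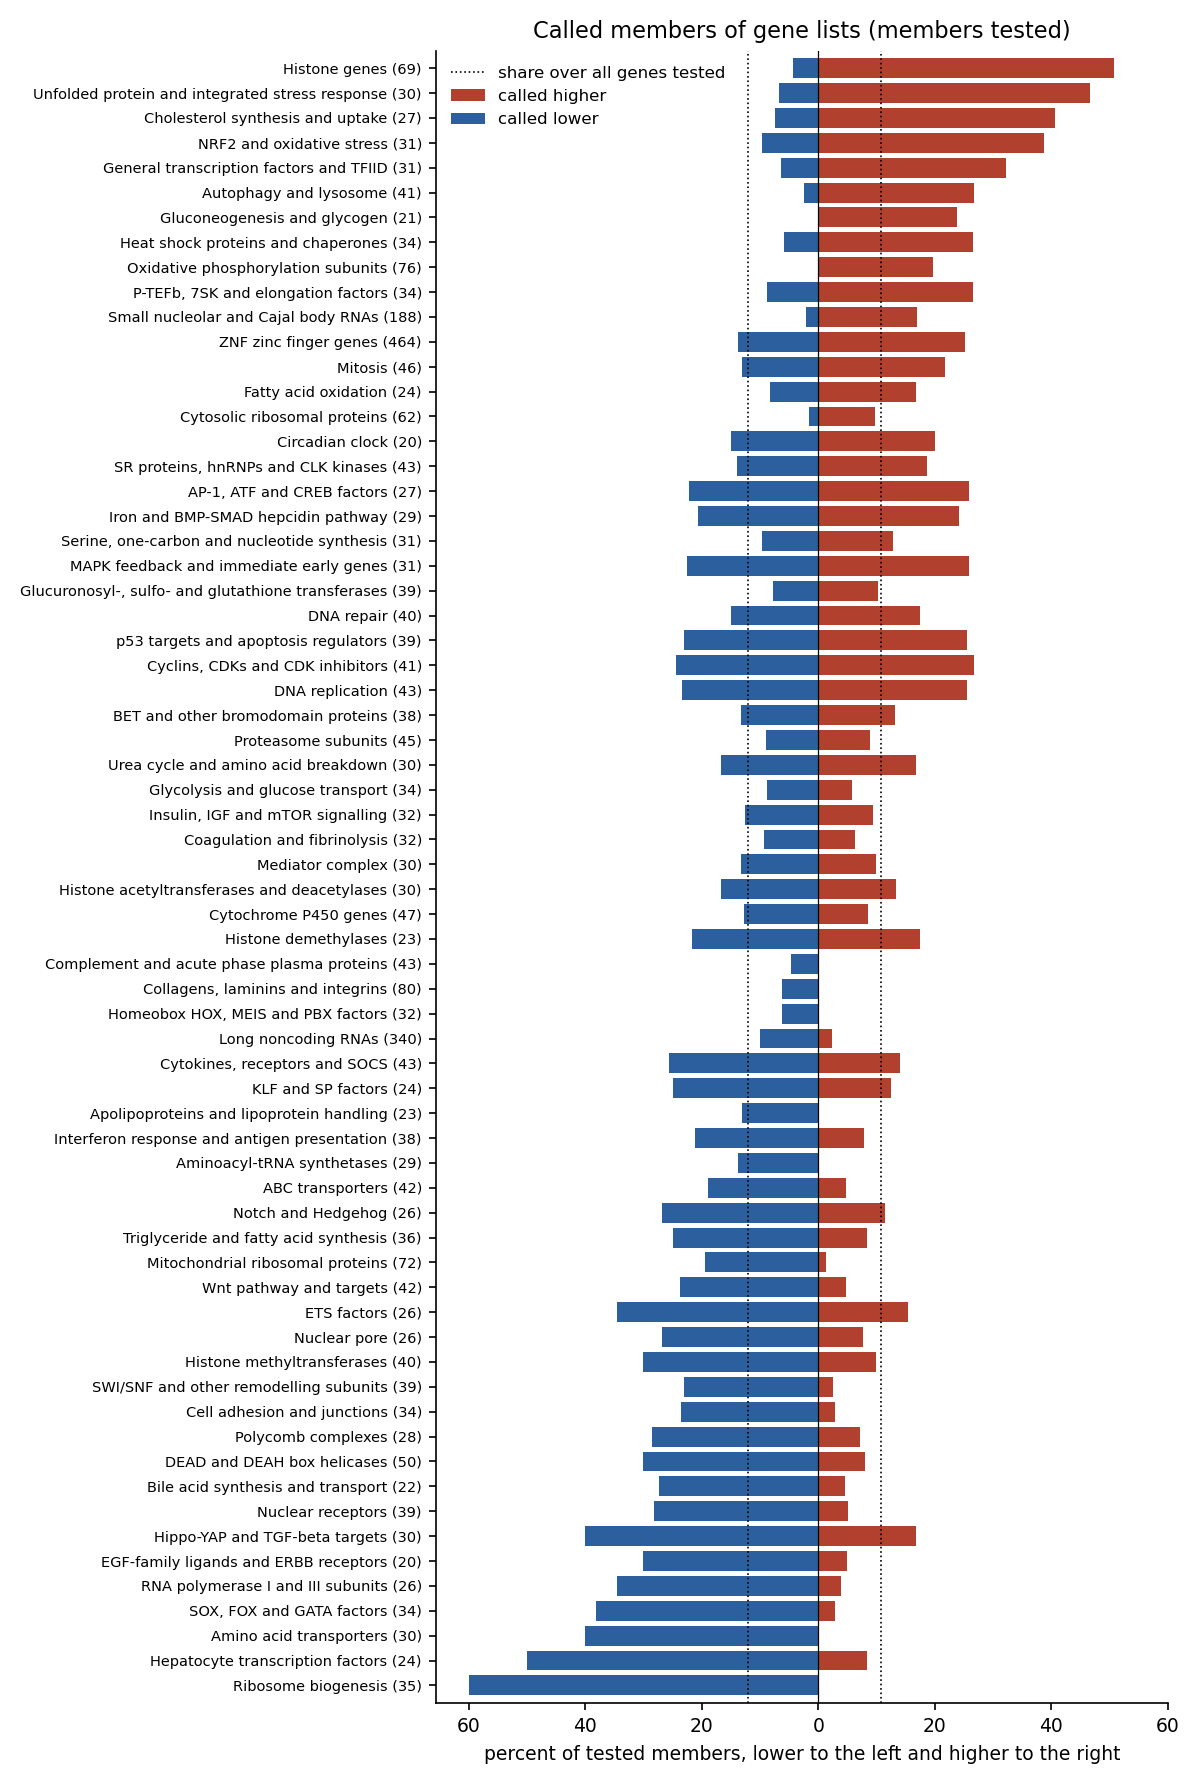
Percent of tested members called higher (right) and lower (left) with JQ1 for each gene list with 20 or more tested members, with the number tested in brackets. Dotted lines mark the shares over all genes, 10.7% higher and 12.0% lower; lists are ordered by the difference of the shares, with histone genes at the top and ribosome biogenesis genes at the bottom.

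General transcription factors rose more often than they fell, and Mediator and Integrator did not. In the list of general transcription factors and TFIID, of 31 tested members 10 rose (5 with JQ1 replicate 1 left out and 6 with JQ1 replicate 2 left out) and 2 fell, with a median of 0.07 (−0.08 after housekeeping centring). GTF2B, the factor TFIIB that sets the start site, stood at 8.89, 8.84 and 8.80 in the DMSO arrays and 9.92 and 9.89 in the JQ1 arrays, a rise of 1.06 ± 0.05, and the TFIID subunits TAF12 and TAF3 rose by 0.93 ± 0.06 and 0.54 ± 0.06. GTF2E1, of TFIIE, rose by 0.41 ± 0.08. In Mediator, which connects activators with polymerase, of 30 tested members 3 rose and 4 fell, with its kinase CDK19 at −0.47 ± 0.06 and MED22 at −0.43 ± 0.06. In Integrator, which cleaves nascent RNA, of 15 tested members 1 rose and 4 fell, with INTS14 at −0.54 ± 0.05 and INTS3 at −0.42 ± 0.05.

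RNA polymerases I and III, which make ribosomal and transfer RNA, went the other way. Of 26 tested members 1 rose and 9 fell, with a median of −0.17. POLR3G, the subunit found in growing and stem cells, stood at 8.71 in DMSO and fell by 0.83 ± 0.09. POLR1G fell by 0.47 ± 0.07, POLR1B fell by 0.46 ± 0.06 and UBTF, the architectural factor of ribosomal DNA, fell by 0.45 ± 0.06. In the ribosome biogenesis list, of 35 tested members 0 rose (0 at an unadjusted p under 0.05) and 21 fell, with a median of −0.22. UTP15, of the small-subunit processome, stood at 9.24, 9.40 and 9.27 in the DMSO arrays and 8.62 and 8.75 in the JQ1 arrays, and BRIX1, of large-subunit assembly, at 9.28, 9.29 and 9.23 in the DMSO arrays and 8.61 and 8.72 in the JQ1 arrays. The groups were apart in both, with differences of −0.62 ± 0.07 and −0.60 ± 0.10.

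Cytosolic ribosomal protein genes had fewer calls. Of 62 tested members 6 rose (2 with DMSO replicate 3 left out, 2 with JQ1 replicate 1 left out and 3 with JQ1 replicate 2 left out) and 1 fell, with a median of 0.06 (−0.10 after housekeeping centring). RPS3A rose by 0.73 ± 0.12. The gene that fell, RPL7L1 (−1.29 ± 0.10), encodes a relative of a ribosomal protein and not a standard subunit of the ribosome. Many of these genes have processed pseudogenes, which probes may also read. Among mitochondrial ribosomal proteins, of 72 tested members 1 rose and 14 fell (9 with JQ1 replicate 2 left out), with a median of −0.06. The one that rose was MRPS33 (0.47 ± 0.07). MRPL50 fell by 0.48 ± 0.06 and MRPL46 fell by 0.47 ± 0.07. Among DEAD and DEAH box helicases, which remodel RNA, of 50 tested members 4 rose and 15 fell. DHX33 fell by 0.69 ± 0.05, DDX17 fell by 0.62 ± 0.06 and DHX35 fell by 0.54 ± 0.06, and DHX29, which helps ribosomes scan, rose by 0.50 ± 0.07.

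Splicing regulators were mixed, since of 43 tested members 8 rose (4 with DMSO replicate 3 left out, 5 with JQ1 replicate 1 left out and 5 with JQ1 replicate 2 left out) and 6 fell. The splicing activators TRA2A and TRA2B rose by 0.48 ± 0.07 and 0.32 ± 0.05, LUC7L by 0.45 ± 0.06 and CLK1, a kinase of SR proteins, by 0.43 ± 0.06. HNRNPDL fell by 0.50 ± 0.06 and SRSF8 fell by 0.46 ± 0.06. RSRP1, which encodes an arginine and serine rich protein, was among the 30 largest rises (1.48 ± 0.07). Among nuclear pore genes, of 26 tested members 2 rose and 7 fell, with NUP35 at −0.54 ± 0.05 and NUP50 at −0.43 ± 0.06. Among aminoacyl-tRNA synthetases, of 29 tested members 0 rose (2 at an unadjusted p under 0.05) and 4 fell, led by the mitochondrial enzymes YARS2 (−0.48 ± 0.06) and LARS2 (−0.38 ± 0.07).

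The lists of histone methyltransferases, Polycomb complexes and remodelling subunits each held more falls than rises. Among histone methyltransferases, of 40 tested members 4 rose and 12 fell, with a median of −0.06. PRDM10 fell by 0.96 ± 0.08. SUV39H1, which methylates histone H3 in heterochromatin, stood at 8.49, 8.61 and 8.57 in the DMSO arrays and 7.73 and 7.75 in the JQ1 arrays (−0.81 ± 0.06), and PRMT6, an arginine methyltransferase, fell by 0.65 ± 0.07. SETDB1, the methyltransferase that works with KRAB zinc finger proteins, fell by 0.59 ± 0.09. Among Polycomb genes, of 28 tested members 2 rose and 8 fell (5 with JQ1 replicate 2 left out). PCGF6 fell by 0.55 ± 0.07 and PHF19 fell by 0.48 ± 0.05, while RYBP, of the variant PRC1 complexes, rose by 0.70 ± 0.07. Among remodelling subunits, of 39 tested members 1 rose and 9 fell (3 with JQ1 replicate 1 left out), with ARID2, of the PBAF complex, at −0.67 ± 0.07.

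Among histone demethylases, of 23 tested members 4 rose and 5 fell (2 with DMSO replicate 1 left out, 1 with JQ1 replicate 1 left out and 3 with JQ1 replicate 2 left out). KDM3A, which removes methyl groups from H3 lysine 9, rose by 0.84 ± 0.08, and PHF2 fell by 0.44 ± 0.06. Among acetyltransferases and deacetylases, of 30 tested members 4 rose and 5 fell (3 with JQ1 replicate 1 left out). The NAD-dependent deacetylase SIRT1 rose by 0.81 ± 0.07 and the acetyltransferase KAT6A by 0.38 ± 0.06, while KAT5, the catalytic subunit of the TIP60 complex, fell by 0.53 ± 0.06.

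Among transcription factors of the liver programme more fell than rose. Of 24 tested members 2 rose and 12 fell, with a median of −0.19. PROX1, a homeobox factor of liver and lymphatic cells, stood at 9.27, 9.30 and 9.06 in the DMSO arrays and 7.96 and 8.24 in the JQ1 arrays, a difference of −1.11 ± 0.10. ZHX2, the repressor of alpha-fetoprotein after birth, fell by 1.08 ± 0.07, and HNF4G, a relative of HNF4A, fell by 0.99 ± 0.06. The groups stood apart in each of these. NFIB, a nuclear factor I gene, fell by 0.60 ± 0.08 and the pioneer factor FOXA2 fell by 0.48 ± 0.07. In the SOX, FOX and GATA list, of 34 tested members 1 rose and 13 fell (7 with JQ1 replicate 1 left out and 7 with JQ1 replicate 2 left out), with SOX5 at −0.98 ± 0.08 and FOXP1 at −0.55 ± 0.06. The transcripts of the plasma proteins that these factors are known to serve had few calls. Among complement and acute phase genes, of 43 tested members 0 rose (2 at an unadjusted p under 0.05) and 2 fell, shares below the background. The genes that fell were MBL2 (−0.53 ± 0.07) and C4BPB (−0.49 ± 0.05).

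Among nuclear receptors, of 39 tested members 2 rose and 11 fell, with a median of −0.07. Besides HNF4G, NR1D1, the clock repressor REV-ERB alpha, fell by 0.54 ± 0.07 and THRA, a thyroid hormone receptor, fell by 0.44 ± 0.05. PPARD rose by 0.35 ± 0.05. In the circadian clock list the activator BMAL1 rose by 0.66 ± 0.09 while its partner CLOCK fell by 0.61 ± 0.10, and the repressors CRY1 and CRY2 rose by 0.48 ± 0.06 and 0.50 ± 0.08. In the clock list, of 20 tested members 4 rose and 3 fell.

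MYC, the growth factor-responsive transcription factor, stood at 11.02, 11.03 and 11.03 in the DMSO arrays and 10.42 and 10.28 in the JQ1 arrays. The JQ1 arrays lay below all DMSO arrays, and the fall was 1.6-fold (−0.67 ± 0.06, adjusted p = 1.629e-04). In its network MXD1, which competes with MYC for MAX, rose by 1.01 ± 0.07, MLXIPL, the carbohydrate response factor ChREBP, rose by 0.38 ± 0.06, and MGA fell by 0.47 ± 0.09. In this list, of 13 tested members 3 rose and 4 fell. Among ETS factors, of 26 tested members 4 rose and 9 fell (4 with JQ1 replicate 2 left out). ELF4 fell by 0.68 ± 0.07 and ETS2 fell by 0.67 ± 0.05, while ETV5, a target of ERK signalling, rose by 0.64 ± 0.05. Among KLF and SP factors, of 24 tested members 3 rose and 6 fell (3 with DMSO replicate 2 left out, 3 with JQ1 replicate 1 left out and 2 with JQ1 replicate 2 left out), with KLF3 at −0.50 ± 0.06 and SP4 at 0.46 ± 0.07. AP-1, ATF and CREB factors split, as of 27 tested members 7 rose and 6 fell (3 with DMSO replicate 2 left out and 2 with JQ1 replicate 2 left out). JUND rose by 0.55 ± 0.07, ATF4 by 0.44 ± 0.06 and CREM by 0.38 ± 0.07. The liver factor CREB3L3 fell by 0.46 ± 0.06 and CREB3L1 fell by 0.46 ± 0.07.

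Lipid genes divided by branch. In cholesterol synthesis and uptake, of 27 tested members 11 rose (7 with JQ1 replicate 1 left out) and 2 fell, with a median of 0.11 (−0.05 after housekeeping centring). MYLIP, the ubiquitin ligase that degrades the LDL receptor, rose most, with 7.86, 7.68 and 7.61 in the DMSO arrays and 9.08 and 9.09 in the JQ1 arrays (1.37 ± 0.09). IDI1, of the isoprenoid steps, rose by 0.91 ± 0.07 and the sterol carrier STARD4 by 0.62 ± 0.09. INSIG2, which holds the SREBP complex in the endoplasmic reticulum, fell by 0.67 ± 0.08. In triglyceride and fatty acid synthesis, of 36 tested members 3 rose and 9 fell (5 with JQ1 replicate 1 left out), with a median of −0.05. GPAM, the first acyltransferase of glycerolipid synthesis, stood at 9.88, 9.86 and 9.81 in the DMSO arrays and 8.31 and 8.51 in the JQ1 arrays, a 2.72-fold fall (−1.44 ± 0.07). MOGAT2, another acyltransferase, fell by 0.94 ± 0.08 and the lipid droplet protein PLIN2 fell by 0.48 ± 0.09, while the lipase PNPLA2 rose by 0.53 ± 0.06.

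Mitochondrial genes moved by small steps. Among oxidative phosphorylation subunits, of 76 tested members 15 rose (8 with DMSO replicate 3 left out, 2 with JQ1 replicate 1 left out and 5 with JQ1 replicate 2 left out) and 0 fell (1 at an unadjusted p under 0.05), with a median of 0.10 (−0.06 after housekeeping centring). COX6C, a subunit of complex IV, rose by 0.49 ± 0.10 and lost its call in 1 of 8 fits without 1 array. In fatty acid oxidation CPT2 rose by 0.48 ± 0.07 and ETFDH by 0.42 ± 0.07, and of 24 tested members 4 rose and 2 fell. PPARGC1A, the coactivator PGC-1 alpha that drives mitochondrial and gluconeogenic genes, stood at 8.63, 8.67 and 8.64 in the DMSO arrays and 7.71 and 7.59 in the JQ1 arrays (−0.998 ± 0.07). Its groups were apart.

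In glycolysis and glucose transport, of 34 tested members 2 rose and 3 fell. SLC2A2, the liver glucose transporter GLUT2, fell by 0.76 ± 0.06 and HK2, a hexokinase, fell by 0.71 ± 0.08. In gluconeogenesis and glycogen, of 21 tested members 5 rose (3 with DMSO replicate 2 left out, 3 with DMSO replicate 3 left out and 2 with JQ1 replicate 1 left out) and 0 fell (1 at an unadjusted p under 0.05), with a median of 0.03 (−0.12 after housekeeping centring). GBE1, the glycogen branching enzyme, rose by 0.51 ± 0.09 and PCK2 by 0.32 ± 0.05. IRS1, which carries insulin signals from the receptor, stood at 7.85, 7.81 and 7.88 in the DMSO arrays and 6.67 and 6.56 in the JQ1 arrays, a difference of −1.23 ± 0.07. The stress-induced mTORC1 inhibitors SESN3 and SESN2 rose by 1.12 ± 0.07 and 0.51 ± 0.07. Among amino acid transporters, of 30 tested members 0 rose (1 at an unadjusted p under 0.05) and 12 fell (7 with JQ1 replicate 1 left out), with a median of −0.16. SLC7A11, the cystine importer, fell by 0.85 ± 0.07, SLC6A14 fell by 0.72 ± 0.09, SLC7A6 fell by 0.57 ± 0.05 and SLC38A1 fell by 0.48 ± 0.06.

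Amino acid and drug metabolism gave single strong changes. CTH, which makes cysteine from cystathionine, rose by 0.88 ± 0.07 and BHMT by 0.44 ± 0.08, and TAT, a glucocorticoid-induced enzyme of tyrosine breakdown, fell by 0.66 ± 0.10 and MAT1A, the liver enzyme of S-adenosylmethionine synthesis, fell by 0.52 ± 0.06. NAT1, an arylamine acetyltransferase, rose by 1.02 ± 0.10. Among cytochrome P450 genes, of 47 tested members 4 rose and 6 fell, at a median log2 signal of 6.14. CYP1A1, the main target of the aryl hydrocarbon receptor, stood at 8.36, 8.23 and 8.37 in the DMSO arrays and 6.97 and 7.23 in the JQ1 arrays (−1.22 ± 0.10), and the 3 RVX-208 arrays at 9.28, 9.45 and 9.53. It was thus below DMSO with JQ1 and above it with RVX-208, comparisons that share the DMSO arrays. CYP24A1, which breaks down vitamin D, fell by 0.85 ± 0.06. TIPARP, another target of the aryl hydrocarbon receptor, rose by 0.87 ± 0.07. In bile acid synthesis and transport, of 22 tested members 1 rose and 6 fell, with a median of −0.14, led by BAAT, which conjugates bile acids (−1.01 ± 0.07). Among apolipoprotein and lipoprotein genes, of 23 tested members 0 rose (2 at an unadjusted p under 0.05) and 3 fell, led by ABCA1, the cholesterol exporter (−0.64 ± 0.06). The probe set of APOA1 was dim, at 5.06, 4.05 and 5.31 in the DMSO arrays and 4.51 and 5.76 in the JQ1 arrays, its groups overlapped and the difference was 0.33 ± 0.57 (adjusted p = 0.727).

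In the EGF-family list, of 20 tested members 1 rose and 6 fell. Besides EREG, LRIG1 and LRIG3, which restrain and modulate EGF receptors, fell (−0.54 ± 0.08 and −0.46 ± 0.07), and ERBB3 fell by 0.40 ± 0.05. HBEGF, another ligand of the same receptors, rose, with 7.52, 7.56 and 7.57 in the DMSO arrays and 8.51 and 8.32 in the JQ1 arrays (0.87 ± 0.07). Among MAPK feedback and immediate early genes, of 31 tested members 8 rose and 7 fell. DUSP16, a phosphatase for JNK and p38, fell by 1.16 ± 0.06 and SPRY1 fell by 0.55 ± 0.08, while the phosphatases DUSP10 and DUSP6 rose by 0.63 ± 0.08 and 0.47 ± 0.06 and EGR1 by 0.62 ± 0.07.

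The lists of developmental pathways held more falls than rises. In the Wnt list, of 42 tested members 2 rose and 10 fell, with a median of −0.12. DKK1, a secreted Wnt antagonist, was bright and stood at 11.93, 11.83 and 11.83 in the DMSO arrays and 10.65 and 10.62 in the JQ1 arrays, a 2.34-fold fall (−1.23 ± 0.06). RNF43, which removes Wnt receptors, fell by 0.79 ± 0.06 and the nuclear effector TCF7L2 fell by 0.54 ± 0.06. In the Hippo and TGF-beta list, of 30 tested members 5 rose and 12 fell, with a median of −0.19. TGFBR2, the ligand-binding receptor, stood at 11.54, 11.56 and 11.54 in the DMSO arrays and 10.56 and 10.68 in the JQ1 arrays (−0.92 ± 0.06). The coactivators WWTR1 and YAP1 fell (−0.48 ± 0.05 and −0.43 ± 0.06), whereas their target CCN2 rose by 0.51 ± 0.05 and TGFBR1 by 0.46 ± 0.07. In the Notch and Hedgehog list, of 26 tested members 3 rose and 7 fell. DTX3L fell by 1.01 ± 0.07, the coactivator MAML2 fell by 0.99 ± 0.07 and the ligand JAG1 fell by 0.59 ± 0.06, while the Notch target HEY2 rose by 0.52 ± 0.10.

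In the hepcidin pathway HAMP, the iron hormone of the liver, stood at 9.92, 9.65 and 9.74 in the DMSO arrays and 8.86 and 8.73 in the JQ1 arrays, a difference of −0.98 ± 0.09. SMAD9, BMP4 and SMAD1, of the BMP signalling that acts upstream of it, fell as well (−0.73 ± 0.07, −0.68 ± 0.06 and −0.60 ± 0.06). The BMP target ID1 rose by 0.39 ± 0.06 and the decoy receptor BAMBI by 0.40 ± 0.06. In the list as a whole, of 29 tested members 7 rose (3 with DMSO replicate 3 left out and 3 with JQ1 replicate 2 left out) and 6 fell. In the cytokine list, of 43 tested members 6 rose (3 with JQ1 replicate 2 left out) and 11 fell (7 with JQ1 replicate 1 left out). LIF, an interleukin-6 family cytokine, fell by 1.25 ± 0.15, the receptors IL1R1 and IL6R fell (−0.92 ± 0.07 and −0.51 ± 0.08) and NFKB1 fell by 0.52 ± 0.08, while NFKBIZ, an atypical inhibitor of NF-kappaB, rose by 0.55 ± 0.05. CCR6, a chemokine receptor, and HCAR1, a lactate receptor, fell (−1.19 ± 0.07 and −1.43 ± 0.09). Among interferon response and antigen presentation genes, of 38 tested members 3 rose and 8 fell (between 2 and 5 without DMSO replicate 2, DMSO replicate 3, JQ1 replicate 1, JQ1 replicate 2 and RVX-208 replicate 2). The 3 that rose were SLFN5, HLA-DOB and B2M (0.42 ± 0.06).

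The lists of stress responses, chaperones and autophagy held more rises than falls. Among genes of the unfolded protein response and the integrated stress response, of 30 tested members 14 rose (9 with JQ1 replicate 1 left out) and 2 fell, with a median of 0.18, which was 0.17 after cyclic loess and 0.02 after housekeeping centring. PPP1R15B, which dephosphorylates eIF2 alpha, rose by 0.69 ± 0.05, HERPUD1 by 0.60 ± 0.06 and DNAJC3 by 0.55 ± 0.07. TRIB3 and XBP1 fell (−0.82 ± 0.10 and −0.44 ± 0.07). Among heat shock genes, of 34 tested members 9 rose (5 with DMSO replicate 3 left out, 4 with JQ1 replicate 1 left out and 4 with JQ1 replicate 2 left out) and 2 fell, with a median of 0.03 (−0.12 after housekeeping centring). The HSP40-type cochaperones DNAJB4 and DNAJB1 rose by 0.86 ± 0.10 and 0.73 ± 0.07. In the autophagy and lysosome list, of 41 tested members 11 rose (6 with JQ1 replicate 1 left out and 5 with JQ1 replicate 2 left out) and 1 fell, with a median of 0.15 (−0.01 after housekeeping centring). MAP1LC3B, the membrane marker of autophagosomes, rose by 0.68 ± 0.07, ATG2A by 0.48 ± 0.07 and the cargo receptor SQSTM1 by 0.40 ± 0.06, and TFEB, the transcription factor of lysosome genes, fell by 0.39 ± 0.07. In the NRF2 and oxidative stress list, of 31 tested members 12 rose (7 with DMSO replicate 2 left out, 3 with JQ1 replicate 1 left out and 7 with JQ1 replicate 2 left out) and 3 fell, with a median of 0.07 (−0.09 after housekeeping centring). SRXN1 rose by 0.66 ± 0.06. The 3 that fell were SLC7A11 (−0.85 ± 0.07), KEAP1, which targets NRF2 for degradation (−0.63 ± 0.06), and GPX1 (−0.32 ± 0.09). Another 16 were not called, among them NQO1 (0.11), GCLC (0.06), GCLM (−0.004), TXNRD1 (0.06) and HMOX1 (−0.18).

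Cell cycle and survival lists held calls in both directions. In signal bins 7 to 9, which hold their median signals, 35.6% to 39.4% of genes were called. The share was 48.7% for p53 targets and apoptosis regulators, 51.2% for cyclins and CDK genes and 48.8% for DNA replication. For mitosis and DNA repair it was 34.8% and 32.5%, no higher than in those bins. Among p53 targets and apoptosis regulators, of 39 tested members 10 rose and 9 fell (5 with JQ1 replicate 2 left out). The proapoptotic BCL2L11 (BIM) rose by 0.78 ± 0.07, TP53INP1 by 0.74 ± 0.08 and MCL1, an antiapoptotic protein, by 0.47 ± 0.06. FAS, a death receptor, fell by 0.82 ± 0.09 and the antiapoptotic BCL2L1 fell by 0.76 ± 0.06. Among cyclins and CDK genes, of 41 tested members 11 rose (7 with JQ1 replicate 1 left out and 6 with JQ1 replicate 2 left out) and 10 fell. CCNE2, a cyclin of the entry into S phase, rose by 0.77 ± 0.07, while E2F2 fell by 0.67 ± 0.08 and CCND2 fell by 0.50 ± 0.07.

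In DNA replication, of 43 tested members 11 rose (6 with JQ1 replicate 2 left out) and 10 fell. Within the origin recognition complex ORC6 rose by 0.65 ± 0.06 and ORC4 by 0.40 ± 0.06 while ORC2 fell by 0.49 ± 0.06. The primase gene PRIM1 fell by 0.54 ± 0.08. In mitosis, of 46 tested members 10 rose (6 with DMSO replicate 3 left out and 4 with JQ1 replicate 2 left out) and 6 fell (3 with JQ1 replicate 1 left out), with the kinesin CENPE at 0.67 ± 0.09 and the checkpoint kinase BUB1B at −0.58 ± 0.06. In DNA repair, of 40 tested members 7 rose (2 with JQ1 replicate 1 left out and 2 with JQ1 replicate 2 left out) and 6 fell, with RAD50 at −0.55 ± 0.07 and XPA at 0.45 ± 0.06.

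Matrix and adhesion genes showed few rises. Among collagens, laminins and integrins, of 80 tested members 0 rose (1 at an unadjusted p under 0.05) and 5 fell (between 0 and 3 without DMSO replicate 3, JQ1 replicate 1, JQ1 replicate 2 and RVX-208 replicate 2), below the background. Among adhesion and junction genes, of 34 tested members 1 rose and 8 fell (5 with JQ1 replicate 1 left out and 5 with JQ1 replicate 2 left out). DSC2, a desmosomal cadherin, stood at 9.87, 9.98 and 9.92 in the DMSO arrays and 8.86 and 8.96 in the JQ1 arrays (−1.01 ± 0.06), and the groups stood far apart. CLDN11, a tight junction protein, fell by 0.62 ± 0.08, and JUP, which joins cadherins to filaments, rose by 0.32 ± 0.05. Among coagulation genes, of 32 tested members 2 rose and 3 fell. Among proteasome subunits, of 45 tested members 4 rose and 4 fell, with PSMD5, an assembly chaperone, at −0.55 ± 0.06. Among ABC transporters, of 42 tested members 2 rose and 8 fell (between 4 and 5 without DMSO replicate 1, DMSO replicate 2, DMSO replicate 3, JQ1 replicate 1, RVX-208 replicate 2 and RVX-208 replicate 3), with ABCC2 at −0.52 ± 0.06. Among HOX, MEIS and PBX genes, of 32 tested members 0 rose (0 at an unadjusted p under 0.05) and 2 fell. They were MEIS2 (−0.48 ± 0.08) and HOXB6, whose call was lost in 5 of 8 fits without 1 array.

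Directions throughout are relative to the normalisation by the authors. When arrays were centred on 11 housekeeping genes, of which 2 rose and 0 fell, the median of all genes went from −0.04 to −0.20, and 960 genes were called higher and 7246 lower. Rises then made up 11.7% of calls, against 47.1% in the values as deposited. After cyclic loess the median was −0.01 and rises made up 52.3%.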

How the data were processed

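RNA of 8 HepG2 samples was read on Affymetrix Human Gene 1.0 ST arrays, and the deposited log2 values are RMA-normalised signals per probe set, per the submitters' processing notes (R 2.15.3, limma 3.14.4). Of 19816 probe sets, 17859 have 1 gene symbol, 997 several and 960 none. For the 14 genes with more than 1 probe set, the brightest was used. limma 3.58.1 (lmFit and eBayes, R 4.3.3) was fitted to 8 arrays in 3 groups. The test of JQ1 minus DMSO was two-sided, with Benjamini-Hochberg adjustment over 17845 genes and calls at adjusted p under 0.05. Values after ± are SE of this fit. In 20 simulations with 200 changed genes among 17845, the fit recovered 21.7%, 90.1% and 98.8% of genes changed by 0.3, 0.6 and 1.0 log2 units. Of the simulated calls 5.24% were false. The noise was normal and drawn from the spread of the fit itself, and far fewer genes were changed than the 4066 called here. These shares therefore check the fit under its own assumptions and do not give the recovery or false calls in these arrays.

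Genes were named by a rule: the 30 largest called rises and falls with JQ1 arrays outside the DMSO range, up to 4 called members in each direction per list with changes of at least 0.3, and 9 genes fixed by name. Genes outside it (marker genes, ARRDC2, POLR2M, ZNF93, ZNF682, ZNF430, ZNF708, ZNF714, ZNF738, ZNF493, ZNF429, ZNF100, SNORD116 copies, NQO1, GCLC, GCLM, TXNRD1, HMOX1 and the microRNA loci with DLEU2 and SMC4) were chosen after their values were seen. The members and the 72 lists were chosen with earlier results of these data known. The authors' deposited table, made in Bioconductor per the file headers, gives log2 fold changes, an F score over both contrasts and its p-value, used as a check only. Sequences and spans are from RefSeq. Promoter windows were found for 13499 protein-coding genes. Alternatives covered the normalisation, the filter on dim probe sets, the model and each array left out. The main fit did not pair samples by replicate number. Deviations of same-numbered DMSO and JQ1 arrays correlated at −0.011 and 0.076. With 2 JQ1 arrays, their deviations mirror each other, so these values cannot settle whether samples were paired.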

Additional observations from a re-analysis of the deposited data

How the results depend on the processing

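The count of genes changed by JQ1 was 4066 (1916 higher, 2150 lower). It was between 2565 and 3788 when 1 array was left out, with 1185 to 1785 higher and 1357 to 2003 lower, and lowest without JQ1 replicate 1 (2572) or JQ1 replicate 2 (2565), where the lone JQ1 array is assumed to vary like the other groups. Cyclic loess gave 4069 and the fit of the 5 DMSO and JQ1 arrays alone 3194. Centring on housekeeping genes gave 8206 (960 higher, 7246 lower), a test against a change of 1.2-fold 739 (356 higher, 383 lower), and an adjusted p under 0.01 gave 2203 (1061 higher, 1142 lower). With a replicate block the count was 3057 (1410 higher, 1647 lower). Whether same-numbered arrays belong together is not known, so whether the block applies is not settled. Of the 4066 calls, 1830 (45.0%) were made in all 8 fits without 1 array, 106 of 109 (97.2%) at changes of at least 1 log2 unit and 62 of 1344 (4.61%) under 0.3. With 1 array left out, APOA1 ranged from −0.30 (without JQ1 replicate 2) to 0.96, with −0.05 without DMSO replicate 2, and BRD3 from −0.0093 (without JQ1 replicate 2) to 0.0465. BRD3 was −0.14 after housekeeping centring. Neither gene was called. The cause was not tested. Signal limits what can be called, since among the dimmest of 10 equal bins of genes 4.54% were called.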

Other observations

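Probe sets that carry no single gene name also changed. Of 997 probe sets with several symbols 82 rose and 85 fell (16.8%), and of 960 with no symbol 100 rose and 103 fell (21.1%). The largest rise among those with several symbols was 3.13 log2 units, above that of any named gene.

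The log2 fold changes of JQ1 against DMSO in the authors' deposited table equal the difference of group means to within 1e-04 for 19815 of 19816 probe sets. The exception is HEXIM1, which the authors' deposited table gives as 1.35, the value it also gives for DHRS2, while the deposited values give a difference of 1.49. The F statistic in the authors' deposited table for HEXIM1, 333.992, equals that recomputed from the values.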
